A study of Homo sapiens with 4 samples.

Results

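The features described here are the transcript clusters of a human transcriptome array to which the platform annotation, as supplied here, gave no gene symbol. Of the 13493 features analysed, 6505 had no symbol, and rows with identical values were counted once, which left 6322 features. Identical rows were counted under their lowest identifier, which decided the chromosome and place used in all counts. A missing symbol means unnamed in that table and does not show that no gene lies there. The array identifier of a feature begins with TC and its chromosome, and the features lay on chromosomes 1 to 5.

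SK-N-SH, a cell line from a human neuroblastoma, was exposed in the study to the dioxin 2,3,7,8-tetrachlorodibenzo-p-dioxin (TCDD). TCDD was used at 1e-10 M for 24 h on 2 arrays, and the solvent dimethyl sulfoxide (DMSO) was used for 24 h on the other 2, with DMSO at no more than 0.1% in all treatments. The arrays of a group are called biological replicates in the titles, but separate cultures are not described, so p-values measure the spread between these arrays, which may be partly technical. The cells are 1 established line, and all 5 measured neuroblastoma markers (HAND1, HAND2, GATA2, MYCN and ALK) had signals above the 95th percentile of olfactory receptor features, while none of the 3 leukocyte, the 1 epithelial and the 2 endothelial markers did. The fibroblast marker PDGFRA, 3 of 3 mesenchymal-state markers and 1 of 2 Schwann cell markers also lay above it.

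TCDD binds the aryl hydrocarbon receptor, a transcription factor that pairs with ARNT and acts on many genes. Much of the genome is transcribed outside protein-coding genes, into long noncoding RNAs, pseudogene transcripts and short structural RNAs such as transfer RNAs (tRNAs). tRNAs carry amino acids to the ribosome, are transcribed by RNA polymerase III, and occur as many near-identical gene copies, often in clusters.

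The log2 signals of features with no symbol had a median of 7.55, against 8.76 for features with a symbol, and the features were less tightly replicated. The SD of the difference between both arrays of a group was 0.143 for DMSO and 0.103 for TCDD, against 0.110 and 0.0647 for features with a symbol. Signals of different features depend on their probes, so these levels describe brightness and not RNA amount. On each array the median signal of the features with no symbol lay below that of protein-coding features, by 1.41 and 1.28 for DMSO and by 1.44 on both TCDD arrays. The gap was 0.10 wider with TCDD, with an SD between replicates of 0.0633, and it turned to 0.0137 narrower under cyclic loess normalization.

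Between TCDD and DMSO, 1328 of the 6322 features with no symbol changed (21.0%) at an adjusted p under 0.05 by limma with Benjamini-Hochberg adjustment over all 13493 features, of which 17.4% were called. Of these, 627 rose (9.92%, against 9.41% of all features) and 701 fell (11.1%, against 8.01%). Which direction was the more frequent depended on scaling: quantile normalization gave 464 rises and 438 falls, cyclic loess normalization 568 and 553, and the fit without DMSO replicate 2 gave 233 and 186. The typical called change was small, with a median of 1.28-fold. A called change of at least 1.5-fold was found for 148 features, 82 higher and 66 lower, where 1.64% of all features met that rule (0.904% higher and 0.734% lower). At least 2-fold changes numbered 16 higher and 5 lower. The arrays of the groups did not overlap for 67.8% of the features with no symbol and for 71.7% of all features. Leaving out an array leaves 1 array in its group, which is then assumed to vary like the pair of the other group, with 1 residual degree of freedom, here and wherever an array is left out. The count of 1328 was then 419 without DMSO replicate 2, 2125 without DMSO replicate 1, 778 without TCDD replicate 1 and 1136 without TCDD replicate 2. The count of at least 1.5-fold changes was 238 without DMSO replicate 1.

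**Figure D1:**
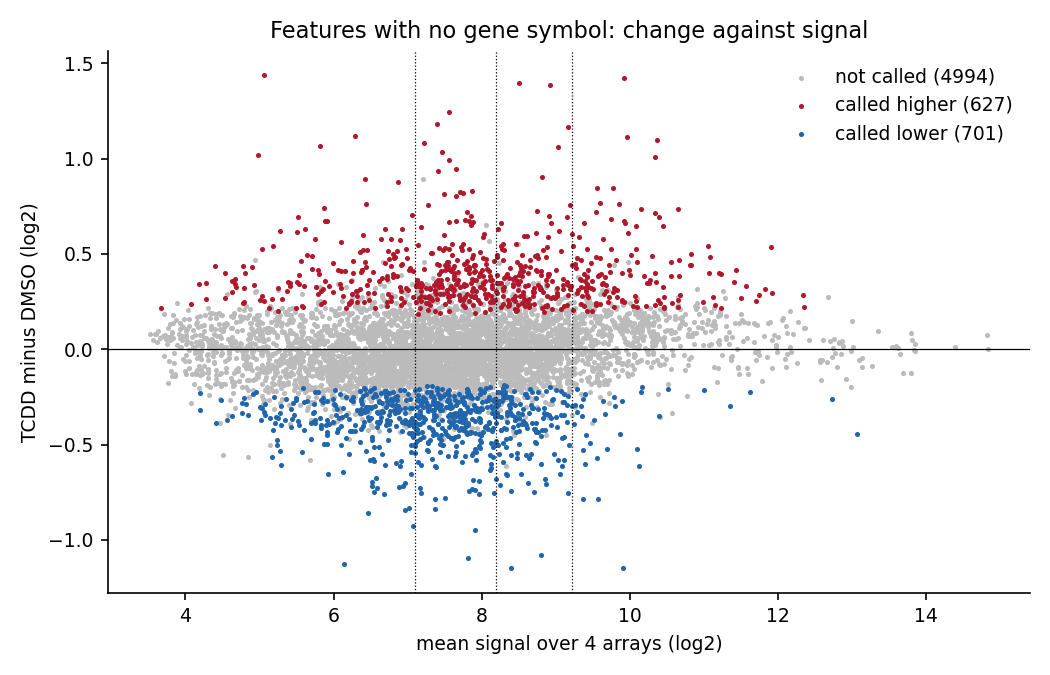
Each point is a feature with no symbol, with its mean log2 signal over the 4 arrays on the x axis and its log2 change, TCDD minus DMSO, on the y axis; dotted lines are the bounds of 4 signal classes of equal size over all features. The 627 features called higher and the 701 called lower lie at all signal levels, with the falls mostly left of the brightest class.

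All features were split into 4 signal classes of equal size, and 2315, 2003, 1223 and 781 features with no symbol fell in the first (dimmest) to the fourth. Falls outnumbered rises in the dimmest class (249 and 151) and in the next (276 and 194). The third was balanced (140 and 144), and rises outnumbered falls in the brightest (138 and 36). Across the classes 6.52%, 9.69%, 11.8% and 17.7% rose, against 6.28%, 8.39%, 10.4% and 12.5% of all features. Falls were 10.8%, 13.8%, 11.4% and 4.61%, against 10.5%, 12.4%, 7.56% and 1.60% of all features. The median change of features with no symbol was -0.05, -0.05, -0.01 and 0.09 across the classes. All features showed the same order, from -0.06 and -0.04 to 0.03 and 0.12, so it was not confined to features with no symbol. The order depended on scaling. Under quantile normalization the dimmest class had 155 rises and 135 falls, the second 168 and 156, and the brightest 53 and 43. Under cyclic loess normalization they had 196 and 157, 213 and 180, and 61 and 57, and the third class had 98 rises and 159 falls. Without DMSO replicate 2 the dimmest class had 59 rises and 59 falls, and the brightest 49 and 9. Without DMSO replicate 1 these were 172 and 532, and 219 and 58.

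Classes of features with a symbol gave a frame for these counts. Of 5229 protein-coding features 379 rose and 200 fell, and 8 changed by at least 1.5-fold. Long intergenic RNAs named LINC rose in 5 and fell in 11 of 110, and antisense RNAs rose in 7 and fell in 44 of 272. Short RNA features (microRNAs, small nucleolar, small nuclear and 5S RNAs among them) rose in 115 and fell in 64 of 584. Olfactory receptor features, most of them dim, rose in 1 and fell in 23 of 76. Features with no symbol thus had a share called of 21.0%. It was 11.1% for protein-coding, 30.7% for short RNA and 31.6% for olfactory receptor features, and the differences between classes were not tested.

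A second mark of dimness was the 95th percentile of olfactory receptor features (8.34), a family of smell receptors that serves here as a guide to low signal. Below it lay 4528 features with no symbol, 368 of which rose and 558 fell. At or above it lay 1794, with 259 rises and 143 falls. All features split the same way, with 532 rises and 825 falls among 7187 below the mark, and 738 and 256 among 6306 at or above it. Quantile normalization gave 341 and 312 for the features with no symbol below the mark, and 123 and 126 above it, and cyclic loess normalization turned both sides, to 428 and 363 below and 140 and 190 above. The counts without DMSO replicate 2 were 143 rises and 136 falls below the mark, and 90 and 50 above it.

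By chromosome, chromosome 1 held 1808 features with no symbol, of which 227 rose and 191 fell. Chromosome 2 held 1499, with 131 rises and 172 falls. Chromosome 3 held 899, with 90 rises and 113 falls. Chromosome 4 held 960, with 89 rises and 94 falls, and chromosome 5 held 1156, with 90 rises and 131 falls. Chromosome 1 had the highest share of rises, 12.6%, and 39 of the 82 rises of at least 1.5-fold. Rises over all features, which include those with no symbol, were 10.6%, 8.62%, 8.71%, 9.07% and 9.24% on chromosomes 1 to 5. Among features with a symbol they were 7.54%, 6.99%, 7.69%, 8.12% and 9.67%, so chromosome 1 was not the highest there. Falls over all features were 8.03%, 7.96%, 8.39%, 7.78% and 7.86%. The features with no symbol fell in 10.6%, 11.5%, 12.6%, 9.79% and 11.3%. Quantile normalization turned the excess of falls on chromosomes 2, 3 and 4, to 106 rises and 93 falls, 72 and 64, and 57 and 56. Cyclic loess normalization did so too, to 126 and 122, 85 and 82, and 77 and 70. Leaving out DMSO replicate 2 lowered the rises to 88, 53, 30, 32 and 30 on chromosomes 1 to 5 and the falls to 51, 39, 32, 28 and 36. Leaving out DMSO replicate 1 raised the falls to 351, 313, 178, 231 and 269. The differences between chromosomes were not tested.

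**Figure D2:**
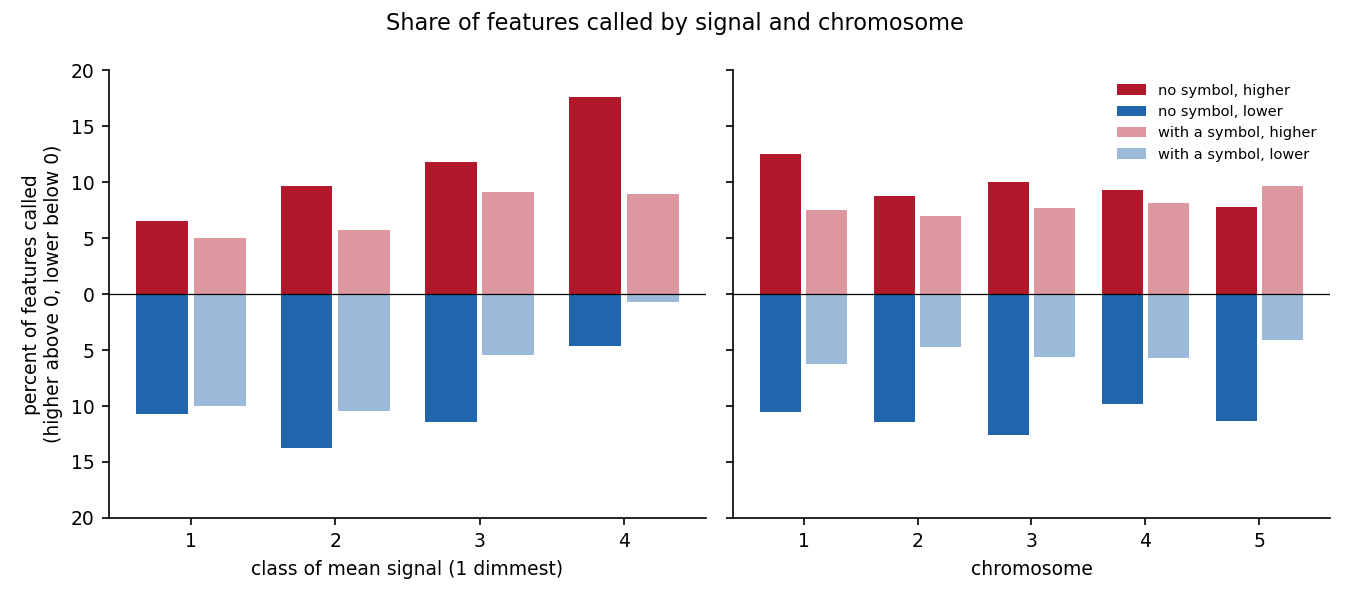
Percent of features called higher (above 0) and lower (below 0) with TCDD, by class of mean signal (left) and by chromosome (right), for features without and with a gene symbol. In the brightest class 17.7% of features with no symbol rose and 4.61% fell, and on chromosome 1 the shares were 12.6% and 10.6%.

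Most identifier numbers carry position. In a first series the named features followed RefSeq order along a chromosome and were nearly all on the plus strand. The numbers then ran on into a second series, in which position started again from the chromosome's beginning and nearly all named features were on the minus strand. A late series after a gap in the numbers, with 499 features of which 66 had no symbol, had 42.1% of its placed features in order and mixed the strands, and its features were not placed. A feature with no symbol could therefore be placed between the nearest named features whose order was kept, its flanking genes, and 6233 of the 6322 had a flank on both sides. RefSeq lists genes by type between those flanks. This names neighbours only and does not say what a feature is.

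The 12 largest rises and the 12 largest falls were chosen among called features whose groups did not overlap. Their separation, given below, was set by that rule. The fitted change was highest for TC03001214, between ANKRD28 and DPH3 on chromosome 3. Its log2 signals were 4.35 and 4.33 with DMSO and 5.43 and 6.12 with TCDD. Both TCDD arrays lay above both DMSO arrays, but far apart from each other. These signals lay far below the dim mark of 8.34, and the files give no measure of background, so the size and rank of this change are not firm. The change was 1.44 ± 0.20 (SE; adjusted p = 0.0117 by limma), and without DMSO replicate 2 it was 1.43 with an adjusted p of 0.0862.

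TC03000905, between the microRNA gene MIR551B and MYNN, a zinc finger gene, stands for 4 rows with identical values on chromosomes 3 and 5. Its signals were 9.27 and 9.16 with DMSO and 10.59 and 10.68 with TCDD. The groups did not overlap, and the gap between them was wider than that between replicates. The change was 1.42 ± 0.06 (SE; adjusted p = 0.0011 by limma). All 4 rows lay between flanks with a tRNA gene between them, on chromosome 3 the valine tRNA gene TRV-AAC1-1. The bracket from MIR551B to MYNN spans 1222 kb, and of its 4 features with no symbol 1 rose and 2 fell.

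TC01001076 and TC01001078 lay 2 identifiers apart between SRGAP2B and NBPF25P on chromosome 1. TC01001076 had signals of 7.99 and 7.61 with DMSO and 9.13 and 9.27 with TCDD, a change of 1.39 ± 0.13 (SE; adjusted p = 0.0052 by limma). TC01001078 had 7.10 and 6.78, and 8.13 and 8.25, a change of 1.25 ± 0.11 (SE; adjusted p = 0.0046 by limma). In both, TCDD lay above DMSO on every array. Of the 13 features with no symbol in that bracket, 6 rose and 2 fell, so the bracket did not move one way. Named features not kept as flanks also carry numbers in this bracket. HJV fell (-0.50), LIX1L and RNF115 rose (0.22 and 0.29), and the others were not called. RefSeq lists 6 tRNA genes in the bracket.

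TC02000690 and TC02000689 are consecutive identifiers between LOC100507334 and ACOXL on chromosome 2 and moved in opposite directions. TC02000690 had signals of 8.12 and 8.33 with DMSO and 9.74 and 9.48 with TCDD, and rose by 1.39 ± 0.11 (SE; adjusted p = 0.0038 by limma). TC02000689 had 9.29 and 9.41 with DMSO and 8.14 and 8.39 with TCDD, and fell by 1.08 (SE 0.09; adjusted p = 0.0044 by limma). The groups did not overlap in either feature.

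TC01001261 was the only feature with no symbol between SNAPIN, a gene of the vesicle release machinery, and NPR1, a natriuretic peptide receptor, and RefSeq lists 1 tRNA gene with anticodon CAT between them. Its signals were 9.84 and 9.81 with DMSO and 10.97 and 10.88 with TCDD. The change of 1.10 ± 0.06 (SE) had an adjusted p of 0.0012 by limma and was larger than the gap between replicates. The same tRNA gene is listed between ILF2 and GATAD2B in the second series. There 0 of 4 features with no symbol rose and 1 fell. TC05002159, between the olfactory receptor gene OR2V1 and TRIM7, a ubiquitin ligase gene, had 8.63 and 8.55 with DMSO and 9.71 and 9.79 with TCDD, a rise of 1.16 ± 0.06 (SE; adjusted p = 0.0012 by limma). In that bracket 3 of 4 features rose, all 3 by at least 1.5-fold, and RefSeq lists 8 tRNA genes there.

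Of the 12 largest rises 6 had a mean signal below the dim mark, as had 8 of the 12 largest falls. The other 5 of the 12 largest rises ran from 1.07 to 1.18. They were TC01001441 between LRRC52 and MGST3, TC01001409 between HSPA7 and FCRLA, TC01003183 between PDZK1P1 and H2BC18, TC02002089 between LSP1P4 and LOC442028, and TC03000052 between EMC3-AS1 and BRK1. TC02002089 and TC03000052 lost their calls under quantile and under cyclic loess normalization. TC02002089 also lost its call without DMSO replicate 2, where its change was 0.77, against 1.08 on all 4 arrays.

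The largest falls were TC05000594, within the run of 20 features between PRDM6 and GRAMD2B on chromosome 5, and TC01003917, between the histone gene H2AC25 and BTNL10P. TC05000594 had signals of 8.83 and 9.11 with DMSO and 7.69 and 7.95 with TCDD, a change of -1.15 ± 0.12 (SE; adjusted p = 0.0072 by limma). TC01003917 had 10.31 and 10.67, and 9.26 and 9.42, a change of -1.15 ± 0.12 (SE; adjusted p = 0.0072 by limma). TCDD lay below DMSO on every array in both. The other 10 of the 12 largest falls ran from -1.13 to -0.79. Among them TC03001596, between DHFR2 and RIOX2, had DMSO arrays at 7.87 and 8.84, an SD of 0.687, and lost its call under quantile normalization (adjusted p = 0.100 by limma) and cyclic loess normalization (0.0792). TC05000117 (-0.95, 0.0726) and TC03000682 (-0.59, 0.0977) lost theirs without DMSO replicate 2, and TC03000682 also under quantile normalization (-0.87, 0.0552).

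The remaining large falls lay apart from each other. TC01000380 (-0.95), between the phosphatase regulator gene PHACTR4 and TRNAU1AP, had signals of 8.16 and 8.60 with DMSO and 7.35 and 7.51 with TCDD. TC02002269 (-0.93), between NIFK and BIN1, had 7.38 and 7.69 with DMSO and 6.55 and 6.67 with TCDD. TC03001437 (-0.86), between DCAF1 and RNA5SP132, had 6.88 and 6.92 with DMSO and 5.94 and 6.14 with TCDD. In these features both TCDD arrays lay below both DMSO arrays. TC03000697 between H1-8 and TMCC1-DT, TC01002212 between DHRS3 and PRAMEF11, and TC04001396 between UNC5C and RNU6-34P fell by 0.85, 0.84 and 0.83. On chromosome 4 the largest rise was TC04001525, between NUDT6 and ANKRD50. Its signals were 7.45 and 7.23 with DMSO and 8.17 and 8.14 with TCDD. The change was 0.82 ± 0.08 (SE), with an adjusted p of 0.0069 by limma. RefSeq lists the cysteine tRNA gene TRC-GCA2-1 in its bracket, which spans 1771 kb. Of the 6 features with no symbol there, 2 rose and 1 fell. The same tRNA gene is listed between SPRY1 and FAT4 in the first series, where 0 of 3 rose.

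**Figure D3:**
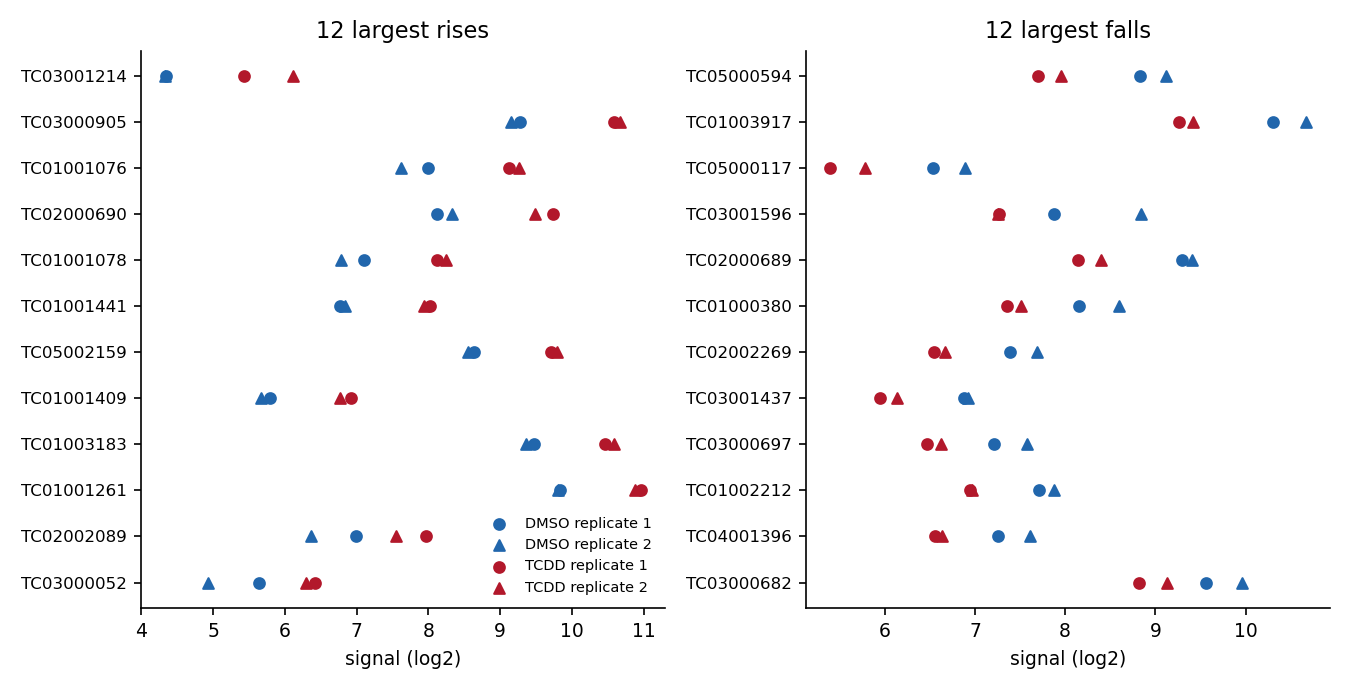
Log2 signals on each of the 4 arrays for the 12 features with no symbol that rose most (left) and the 12 that fell most (right), largest change at the top. The 24 features were chosen among those whose groups did not overlap. TC03001214 has the widest gap between TCDD arrays and TC03001596 between DMSO arrays.

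The 5 brightest features with no symbol, TC01002863, TC02000740, TC01001567, TC02002850 and TC01000315, had mean signals from 13.86 to 14.84 and changes from -0.01 to 0.08. None was called.

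Neighbouring identifiers moved together only weakly. The 6322 features formed 2918 runs of consecutive identifiers, of which 1510 were single features. A row left out as a repeat ended a run. The longest run held 21 features, between ABL2 and TOR1AIP2 on chromosome 1, with 4 rises and 3 falls. Among pairs of features with no symbol and consecutive identifiers, 56.3% of 3386 pairs changed with the same sign, against 50.1% at a distance of 10 and 51.1% at 100. The correlation of the changes of consecutive features was 0.12 (n = 3386 pairs, which share arrays). With a neighbouring named feature the same-sign share was 50.1% of 2584 pairs at a distance of 1, and 46.9% at 100.

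By run length, single features had a median signal of 7.78 and rose in 13.1% and fell in 10.7%. The 284 features in runs of over 10 had a median signal of 6.96. Of these, 8 rose (2.82%, against 9.41% of all features) and 43 fell (15.1%, against 8.01%). All features below the dim mark rose in 7.40% and fell in 11.5%. The difference between run lengths, and the part of signal in it, was not tested. Without DMSO replicate 2 the long runs had 5 rises and 14 falls, and without DMSO replicate 1 they had 14 and 84. In the run TC05000581 to TC05000600, between PRDM6 and GRAMD2B, 5 of 20 features fell and none rose. In the run TC05001121 to TC05001133, between IRX2, a homeobox gene, and ADAMTS16-DT, 3 of 13 features fell and the change was above 0 in none. Other long runs were mixed. TC04000337 to TC04000350, between POLR2B and ADGRL3, had 1 rise and 0 falls among 14 features. TC03000445 to TC03000460, between ROBO2 and CHMP2B, had 3 falls, with 8 of 16 changes above 0.

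Runs in which consecutive features were all called one way numbered 40 for rises and 42 for falls, none longer than 3. These lengths leave out repeated rows, which end a run. With repeats included, every identifier from TC01001388 to TC01001398 was called higher, as was every one from TC05002157 to TC05002160. The 3 runs of 3 rises were TC03001182 to TC03001184 (0.67, 0.76 and 0.68) between TMEM40 and IQSEC1, TC01001388 to TC01001390 (0.37, 0.74 and 0.30) between SDHC, a subunit of succinate dehydrogenase, and FCGR2A, an Fc receptor gene, and TC01001402 to TC01001404 (0.47, 0.44 and 0.69) between the heat shock genes HSPA6 and HSPA7. The named flanks were not called: TMEM40 at -0.05, IQSEC1 at 0.17, SDHC at 0.23, FCGR2A at -0.14, HSPA6 at -0.04 and HSPA7 at -0.02. The 3 runs of 3 falls were TC05000116 to TC05000118 (-0.27, -1.13 and -0.66) between LINC02899 and LSP1P3, TC05000036 to TC05000038 (-0.36, -0.25 and -0.42) between IRX1 and ADAMTS16, and TC01002237 to TC01002239 (-0.39, -0.26 and -0.33) between RNA5SP41 and TMEM51-AS2. Of their flanks, RNA5SP41 rose by 0.43 and TMEM51-AS2 fell by 0.27, and the others were not called. Without DMSO replicate 2 no called run reached 3 features and 5 runs of rises and 2 of falls were left, while without DMSO replicate 1 there were 66 and 163. Some changes stayed about as large when the call was lost without DMSO replicate 2, such as TC03001184 (0.71) and TC01001390 (0.28). Quantile normalization gave 20 and 11.

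A larger share of the features placed between flanks with tRNA genes rose than of the others. This grouping, and that by identical rows below, were noticed among 13 groupings of the features after their values had been seen, so they are descriptions and carry no test. In 64 such brackets lay 334 features with no symbol, of which 102 rose (30.5%) and 27 fell. Some brackets were wide, so a listed tRNA gene can lie far from a feature. Counted over features, the median span was 821 kb, against 591 kb for the others, and PFN1P2 to CD160 spanned 25287 kb. In the other 5899 placed features 519 rose (8.80%) and 663 fell. Of the 82 rises of at least 1.5-fold, 40 lay in tRNA brackets (48.8%), which held 5.28% of the features, and 7 of the 12 largest rises but 1 of the 12 largest falls did.

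Rises were more frequent in tRNA brackets in every signal class, at 15.4%, 25.3%, 33.8% and 43.6% against 6.26%, 9.17%, 10.3% and 13.8% of the other features. Most came from chromosome 1, with 82 of the 102 rises and 240 of the 334 features, and 20 of 94 rose on the other chromosomes (12 without DMSO replicate 2). On those chromosomes 12 of the 94 fell (12.8%), and in the other brackets there 8.58% rose and 11.2% fell. Outside tRNA brackets chromosome 1 did not have the highest share of rises, at 9.41% against 9.53% on chromosome 3. The 114 named flanks of the tRNA brackets rose in 12 (10.5%). tRNA brackets of at most 500 kb held 44 rises among 109 features (40.4%), against 11.3% in other brackets of that size, and without DMSO replicate 2 they held 21. Where RefSeq lists exactly 1 tRNA gene, the counts were 23 rises and 17 falls among 117. Without DMSO replicate 2 the 102 rises were 54 (16.2%, against 3.00% of the others). RefSeq gives no strand for tRNA genes here, so a tRNA gene counts in the brackets of both strands.

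The bracket was defined once more after its first counts were seen: a first version without the order filter on flanks had 303 features, of which 85 rose (28.1%) and 27 fell, against 8.67% of the others. Other gene types in the brackets went with smaller differences. Features in brackets with small nuclear RNA genes rose in 76 of 353 (21.5%), and in 23 of 189 where no tRNA gene was listed too. Features in brackets with no long noncoding RNA gene rose in 112 of 653 (17.2%), and in 94 of 618 where no tRNA gene was listed either. Without DMSO replicate 2 both counts were 41, and 13 and 30 where no tRNA gene was listed. Brackets with microRNA, small nucleolar RNA, pseudogene or protein-coding genes had from 9.30% to 10.7% rises.

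**Figure D4:**
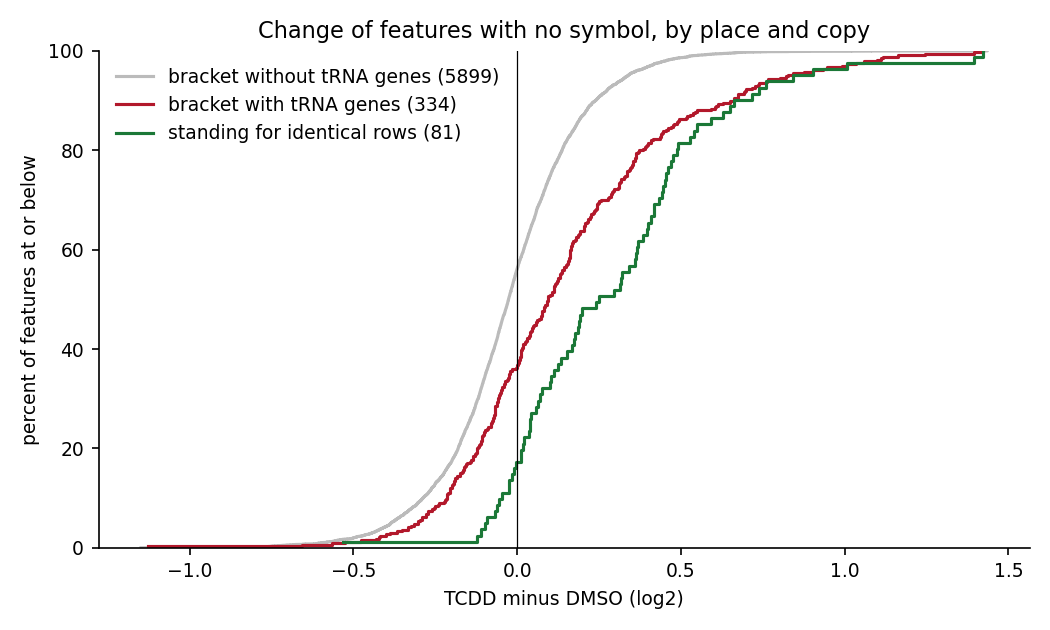
Cumulative percent of features with no symbol against log2 change, TCDD minus DMSO, for brackets without tRNA genes (n = 5899), brackets with tRNA genes (n = 334) and features that stand for several identical rows (n = 81). The median change is -0.03, 0.09 and 0.25, and the last group shares 36 features with the second.

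Features that stand for several rows with identical values numbered 81, of which 41 rose (50.6%) and 1 fell, with a median change of 0.25 and 67 of 81 changes above 0. Their median signals per array were 9.18 and 9.13 with DMSO and 9.62 and 9.56 with TCDD, so both TCDD medians lay above both DMSO medians. The rows of 13 sets lay on several chromosomes, and the largest set had 14 rows. The array's probe sequences were not used here.

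By their lowest identifier 36 of the 81 sets counted in tRNA brackets, but only 25 had all their rows with no symbol there. Of these 25 sets, 20 rose and none fell, and all 12 rises of at least 1.5-fold among the sets were there. Over all 81 sets such rises were 7 under quantile normalization, and 9 under cyclic loess normalization and without DMSO replicate 2. Of the 39 sets with no row in a tRNA bracket, 15 rose and 1 fell. Among features of a single row, 78 of 298 in tRNA brackets rose (26.2%), against 8.58% of the others. The difference between brackets was thus also present without the sets of identical rows. Rows alike but not identical were not removed, so these 298 features need not be independent. Without DMSO replicate 2 the 41 rises were 25, and the 78 were 37. TC01001389, in the run between SDHC and FCGR2A, stands for 6 rows, all in tRNA brackets. Its signals were 10.49 and 10.08 with DMSO and 10.94 and 11.10 with TCDD, a change of 0.74 ± 0.13 (SE; adjusted p = 0.0204 by limma), and without DMSO replicate 2 the change was 0.54 (adjusted p = 0.0596). The call was also lost under quantile normalization (0.60, adjusted p = 0.0568).

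**Figure D5:**
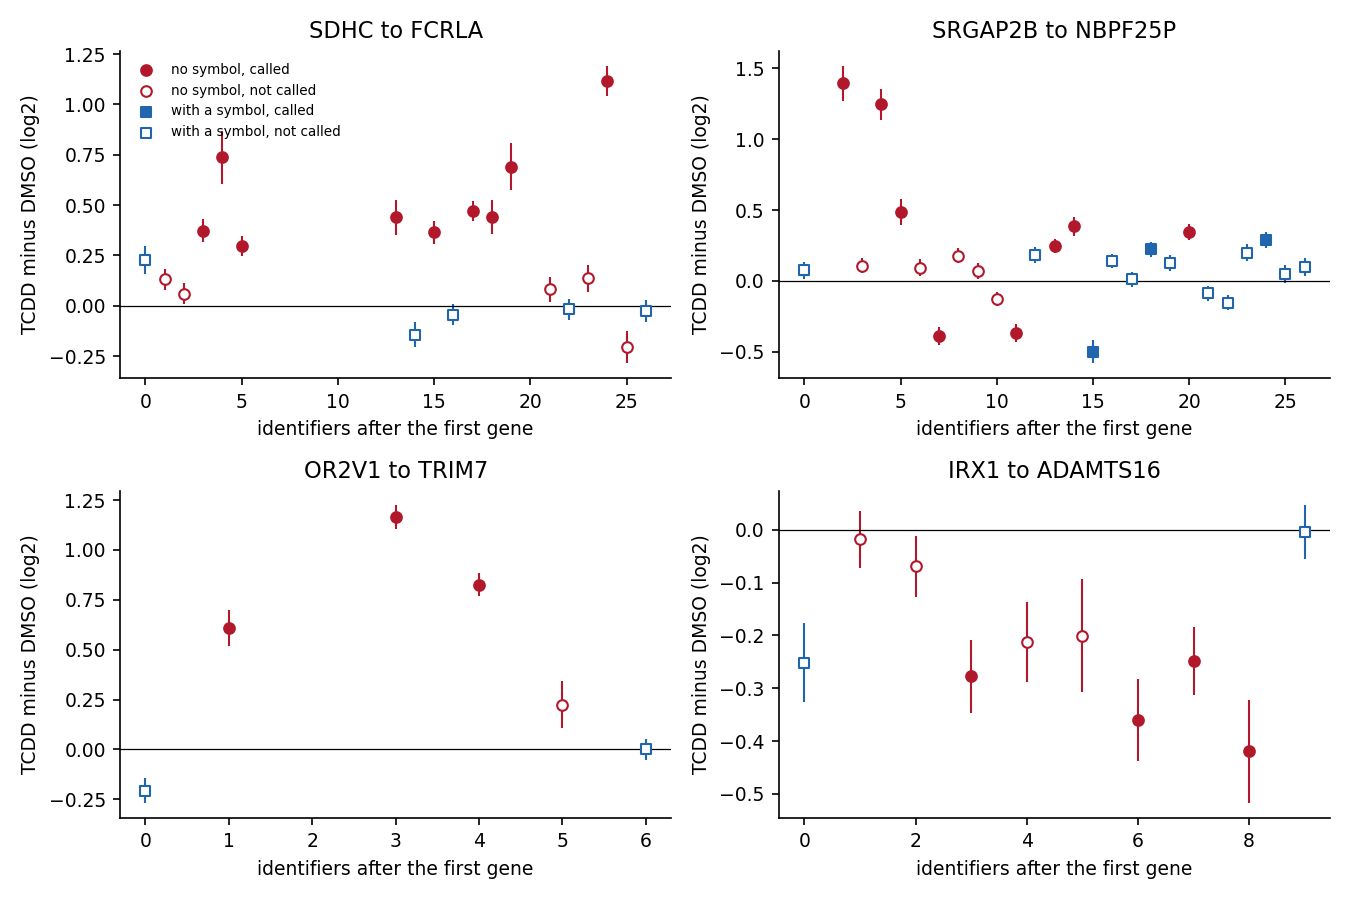
Log2 change, TCDD minus DMSO, with its SE, against the identifier number counted from the first named gene, at 4 loci; circles are features with no symbol, squares named features, and filled symbols are called. Rows left out as repeats of identical values are not drawn. Between OR2V1 and TRIM7 3 of 4 features with no symbol rose, while both named flanks were not called. Between IRX1 and ADAMTS16 all 8 changes lie below 0.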

How the data were processed

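Total RNA of 4 samples was hybridised to 1 array each. The deposited log2 values had been made by the authors with RMA, per the submitters' processing notes; its settings are not given in the labels. Groups came from the titles.

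Each of 13493 features was fitted with limma 3.58.1 (R 4.3.3), 2 arrays against 2, no block, 2 residual and 4.27 prior degrees of freedom; p-values were two-sided with Benjamini-Hochberg adjustment over all features, called under 0.05. In simulated data 105 features were called, 1 falsely, and changes of 0.25, 0.5, 0.75 and 1 (log2) were recovered in 4%, 42%, 76% and 86%. The simulation changed few features and gave each independent noise, with no shift shared by an array. In the real data 2351 features were called, so these rates need not hold there.

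Symbols came from the platform annotation and RefSeq names (GRCh38.p14), 5930 matched by Entrez identifier, 618 by symbol and 97 by synonym; 341 features with several symbols were not named. No coordinates are printed, because the array's build is not given. Flanks were the longest series of named features in RefSeq order per chromosome and numbering series.

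The features and groupings were chosen with earlier results of these data known, and the brackets were redefined after a first count. Named features were, by rule, the 12 largest rises and falls without overlap, the largest per chromosome, the 5 brightest and the longest runs; other features and brackets were chosen after their values were seen. A permutation test planned for the median level is not given, since the features were chosen with results known and 2 against 2 arrays cannot reach a p under 0.333. Alternatives are given in the closing section. The number of arrays limits the precision.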

Additional observations from a re-analysis of the deposited data

How the results depend on the processing

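Of 42 named features that were called, 19 lost the call without DMSO replicate 2, 10 under quantile normalization, 7 without TCDD replicate 1, 6 under cyclic loess normalization, 4 without TCDD replicate 2, 2 with array weights, and 1 each without DMSO replicate 1 and with a trended robust prior; none reversed. The 1328 called features ranged from 419 to 2125 over arrays left out, and were 2059 with replicate number as a block (the numbers share no documented pairing; the replicate 1 deviations of both groups correlated at 0.068) and 616 of the 2004 left without the dimmest 50% (the 2 bright signal classes held 284 and 174 calls before). The 148 changes of at least 1.5-fold ranged from 103 to 238 over arrays left out, were 62 without the dimmest 50% (35 and 26 in these classes before), 1081 at 1.2-fold and 21 at 2-fold. The wider gap to protein-coding features (-0.099) was -0.023 under quantile normalization and 0.0137, reversed, under cyclic loess, and ranged from -0.162 to -0.0355 over arrays left out. The 102 rises in tRNA brackets ranged from 54 to 113 over arrays left out, and were 23 for brackets with 1 tRNA gene, 44 for brackets of at most 500 kb and 85 without the order filter. The 41 rises among identical sets ranged from 25 to 39. These bracket and set alternatives were chosen after seeing the data. Uncalled bright features changed sign at values near 0: over arrays left out, TC01000315 ranged from -0.0517 to 0.0287, TC01001567 from -0.014 to 0.0405 and TC01002863 from -0.0079 to 0.0073. TC01000315 was 0.0383 under quantile normalization, TC02000740 was 0 there, and TC01002863 was 0.0268 under cyclic loess and 0.0099 under median centring. The causes were not tested.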
